A study of Mus musculus with 14 samples.

Results

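The 10 genes described here encode the interleukin-1 (IL-1) family cytokines Il1a, Il1b and Il18, the soluble antagonists Il1rn and Il18bp, the receptors Il1r2 and Il1rap, and the inflammasome parts Nlrp3, Pycard and Casp1. They were chosen by symbol from the 23420 genes of the count table, and all 10 were found and passed the filter on low counts. The libraries were made from dendritic cells (DCs) of mouse lymph nodes, the cells that present antigen to T cells, from C57BL/6 mice. They follow LIPSTIC, a method that marks cell contacts: sortase A on 1 cell attaches a biotinylated peptide to a pentaglycine tag on its partner. The biotin-positive group (6 libraries) and the biotin-negative group (6 libraries) came from mice labelled G5-Cd40+/+, in which CD40 carries the tag. These recipients were given Cd40G5/G5 DCs pulsed with OVA323-339, 5e+05 per footpad, and 18 hours later 3e+05 CD4+ T cells of the OT-II line with the alleles CD40lgSrtA/Y and CD4-Cre, in which the Cd4 promoter drives Cre and CD40 ligand carries the sortase. The Cd40-null group (2 libraries) came from Cd40-/- mice in which both transfers, pulsed DCs and OT-II T cells, were wild type, so these libraries differ in host genotype and in transferred cells at once. In all groups Biotin-LPETG (300 nmol per footpad) was given 46 hours after the T cells, and the popliteal nodes were collected 48 hours after them. Endogenous DCs high in MHC class II, positive for CD11c (intermediate in the labels) and CD11b and negative for XCR1 were sorted at 150 cells per library. Cd40-null cells were sorted whole, and the biotin groups are the marked and unmarked shares of their gate. The age of the mice is not given, and the labels do not say whether libraries are from separate mice, so a p-value here speaks only for the spread among these libraries, which may be technical.

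IL-1α and IL-1β signal through a receptor that needs the accessory chain IL1RAP. Il1rn encodes the antagonist that occupies that receptor without signalling, and IL1R2 is a decoy that binds IL-1 and does not signal. IL-18 uses its own receptor and is neutralised by the secreted IL-18 binding protein. The sensor NLRP3 joins through the adaptor ASC, encoded by Pycard, to caspase-1, which cuts the precursors of IL-1β and IL-18 into their active forms. In DCs, IL-1β and IL-18 are known as cytokines that act on T cells and on natural killer cells.

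Of the 10 genes, 3 lie on mouse chromosome 2 (GRCm38), where Cd40 also lies from 165055627 to 165072948. Il1a spans 129299610 to 129309972 and Il1b 129364570 to 129371139, both on the minus strand with 54597 bases between them. Il1rn spans 24336853 to 24351494 on the plus strand. Il18 (50554827 to 50581840) and Casp1 (5298517 to 5307265) are on chromosome 9, and Il18bp (102014885 to 102018690) and Pycard (127989708 to 127993867) on chromosome 7. Il1r2 is on chromosome 1 (40074079 to 40125231), Il1rap on chromosome 16 (26581704 to 26730117) and Nlrp3 on chromosome 11 (59541568 to 59566956). All 10 are protein-coding.

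The 250 bases before the RefSeq start site are shown for Il1a, Il1b, Il18 and Il18bp, the genes that differed between the biotin groups and have 1 start site in that table. They let the upstream sequence be read beside the direction of each gene, lower in biotin-positive libraries for the first 3 and higher for Il18bp. Il1rn has 3 start sites, which counts per gene do not separate, and is not printed. Sequences are those of GRCm38.p6, 5′ to 3′ on the gene's strand, and capitals mark matches on either strand to 4 short motifs. The windows are chr2:129309973-129310222 on the minus strand, chr2:129371140-129371389 on the minus strand, chr9:50554450-50554699 on the plus strand and chr7:102018233-102018482 on the minus strand.
Il1a: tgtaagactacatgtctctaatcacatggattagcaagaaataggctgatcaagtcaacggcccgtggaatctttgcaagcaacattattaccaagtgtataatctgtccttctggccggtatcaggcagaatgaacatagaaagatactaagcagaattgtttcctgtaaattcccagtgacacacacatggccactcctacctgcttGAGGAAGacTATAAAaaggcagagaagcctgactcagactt
Il1b: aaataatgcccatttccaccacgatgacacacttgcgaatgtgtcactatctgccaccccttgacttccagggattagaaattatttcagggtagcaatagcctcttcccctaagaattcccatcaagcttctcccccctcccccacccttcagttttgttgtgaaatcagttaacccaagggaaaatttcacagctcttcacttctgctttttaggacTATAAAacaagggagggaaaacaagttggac
Il18: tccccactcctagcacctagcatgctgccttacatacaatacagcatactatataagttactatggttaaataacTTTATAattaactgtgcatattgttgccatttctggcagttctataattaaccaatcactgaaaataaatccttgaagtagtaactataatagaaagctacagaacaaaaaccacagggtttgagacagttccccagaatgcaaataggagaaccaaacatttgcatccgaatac
Il18bp: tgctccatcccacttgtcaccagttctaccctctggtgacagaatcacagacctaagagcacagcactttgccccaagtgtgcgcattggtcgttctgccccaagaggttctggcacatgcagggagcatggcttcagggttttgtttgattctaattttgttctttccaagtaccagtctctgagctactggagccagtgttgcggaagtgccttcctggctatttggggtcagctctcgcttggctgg

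The motifs searched were a TATA box (TATAAA), a core bound by the myeloid factor PU.1 (GAGGAAG), an NF-kB site (GGGA and TTCC with any 2 bases between) and an interferon-stimulated response element (2 copies of GAAA with any 2 bases between). Il1a and Il1b each held TATAAA about 30 bases before the start, at -32 to -27 in Il1a and at -31 to -26 in Il1b. Il1a also held GAGGAAG at -41 to -35, which does not overlap its TATA box. Il18 held the TATA letters on the opposite strand at -175 to -170, and the Il18bp window held none of the 4 motifs. Over the 13 start sites of the 10 genes, the TATA letters occurred in 3 genes (Il1a, Il1b and Il18) and the PU.1 core in 3 (Il1a, Nlrp3 and Pycard). Each of these genes held the letters at 1 start site, so each of these 2 motifs was in 3 of the 13 windows. The NF-kB and interferon letters occurred in 0 of the 10. Of 32851 windows of this length in the table, 12.4% held the TATA letters, 10.6% the PU.1 core, 1.21% the NF-kB letters and 2.98% the interferon letters. A match is a stretch of letters and not a measured site, and none of these values bears on binding.

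Total counts per library ran from 1.45e+07 to 3.33e+07. Levels are CPM (counts scaled to a common library total) with TMM factors. Cd40, the gene removed in the null mice, stood at 852 to 1310 CPM in biotin-positive libraries, 386 to 598 CPM in biotin-negative libraries, and 74.2 and 53.3 CPM in the Cd40-null libraries; the labels do not give which part of the gene is deleted. Of 12 DC markers, 2 rose in biotin-positive against biotin-negative libraries (Fscn1 and Irf8), 5 fell (Itgax, H2-Ab1, Cd74, Sirpa and Itgam) and 5 were not called, among them Flt3 at 907 to 1160, 741 to 968, and 763 to 894 CPM in the same order of groups. H2-Ab1, a chain of MHC class II, had medians of 239 CPM in biotin-positive, 1390 CPM in biotin-negative and 498 CPM in Cd40-null libraries, and Itgax, which encodes CD11c, of 55.6, 126 and 99.6 CPM. Itgam, which encodes CD11b, was low against that gate, at 0.0516 to 5.88 CPM in biotin-positive, 10.1 to 65.0 CPM in biotin-negative, and 11.2 to 18.3 CPM in Cd40-null libraries. Between 13090 and 13455 genes had counts in biotin-positive libraries, 14225 to 15742 in biotin-negative libraries, and 13113 and 13596 in Cd40-null libraries. In these pools of sorted cells, fewer cells expressing a gene and less RNA per cell cannot be told apart.

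Biotin-positive DCs were first set against biotin-negative ones, which asks what distinguishes cells marked by T cells through CD40 from unmarked cells in mice of the same genotype. Marked DCs had lower transcript levels of all 3 ligands and of the IL-1 antagonist, and a higher level of the IL-18 antagonist. Il1b stood at 4.84 ± 4.79 CPM against 102 ± 69.4 CPM (SD, n = 6 each), and Il1rn at 12.9 ± 4.89 CPM against 77.0 ± 32.6 CPM. Casp1, Pycard and Nlrp3, which act in processing IL-1β and IL-18, did not pass the test. In the edgeR quasi-likelihood test over 14217 genes with Benjamini-Hochberg adjustment at 0.05, 4 of the 10 genes fell (Il1a, Il1b, Il1rn and Il18), 1 rose (Il18bp) and 5 were not called, and 6 had an unadjusted p under 0.05. Over all genes tested, 4.05% were called lower, 3.7% higher and 7.75% in either direction, and 21.1% had an unadjusted p under 0.05. The median log2 fold change was -1.28 over the 10 genes and -0.03 over all genes tested.

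Il1b, the main secreted IL-1 cytokine, had its lowest biotin-positive library at 0, a median of 4.70 and its highest at 12.9 CPM, against 37.1, 88.5 and 225 CPM in biotin-negative libraries. The groups did not overlap, and the lowest biotin-negative library was above every biotin-positive one. The fitted fold change was log2 -4.38 (SE 0.83, adjusted p = 0.00429), 20.8-fold lower. Of the Cd40-null libraries, the one at 51.5 CPM lay inside the biotin-negative range and the one at 20.4 CPM between the ranges of the biotin groups.

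Il1a encodes the IL-1 that also acts from inside and on the surface of the cell. It had counts in 1 of 6 biotin-positive libraries, 10 counts in replicate 6, and in 5 of 6 biotin-negative libraries, up to 143 counts. Its levels were 0, 0 and 0.516 CPM as lowest, median and highest in biotin-positive libraries and 0, 3.22 and 6.70 CPM in biotin-negative libraries, so the groups overlapped at 0. The difference was called (log2 -5.18, SE 1.52, adjusted p = 0.0464), but with 1 library left out it was called in only 2 of 12 fits, those without biotin-positive replicate 6 or biotin-negative replicate 1. Without biotin-positive replicate 6, the one library of its group with counts, the fitted value was log2 -9.13 (adjusted p = 0.0112); with that group then at 0 it depends on the prior count.

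Il18, which DCs and epithelia make as a precursor, stood at 4.10, 8.15 and 12 CPM as lowest, median and highest in biotin-positive libraries, against 13.0, 15.7 and 23.8 CPM in biotin-negative libraries. The groups did not overlap, though the gap between them was narrow. The fold change was log2 -0.99 (SE 0.27, adjusted p = 0.0338). The call was kept in 6 of 12 fits with 1 library left out, and was lost without biotin-positive replicate 1, 2 or 6 or biotin-negative replicate 2, 3 or 4.

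**Figure D1:**
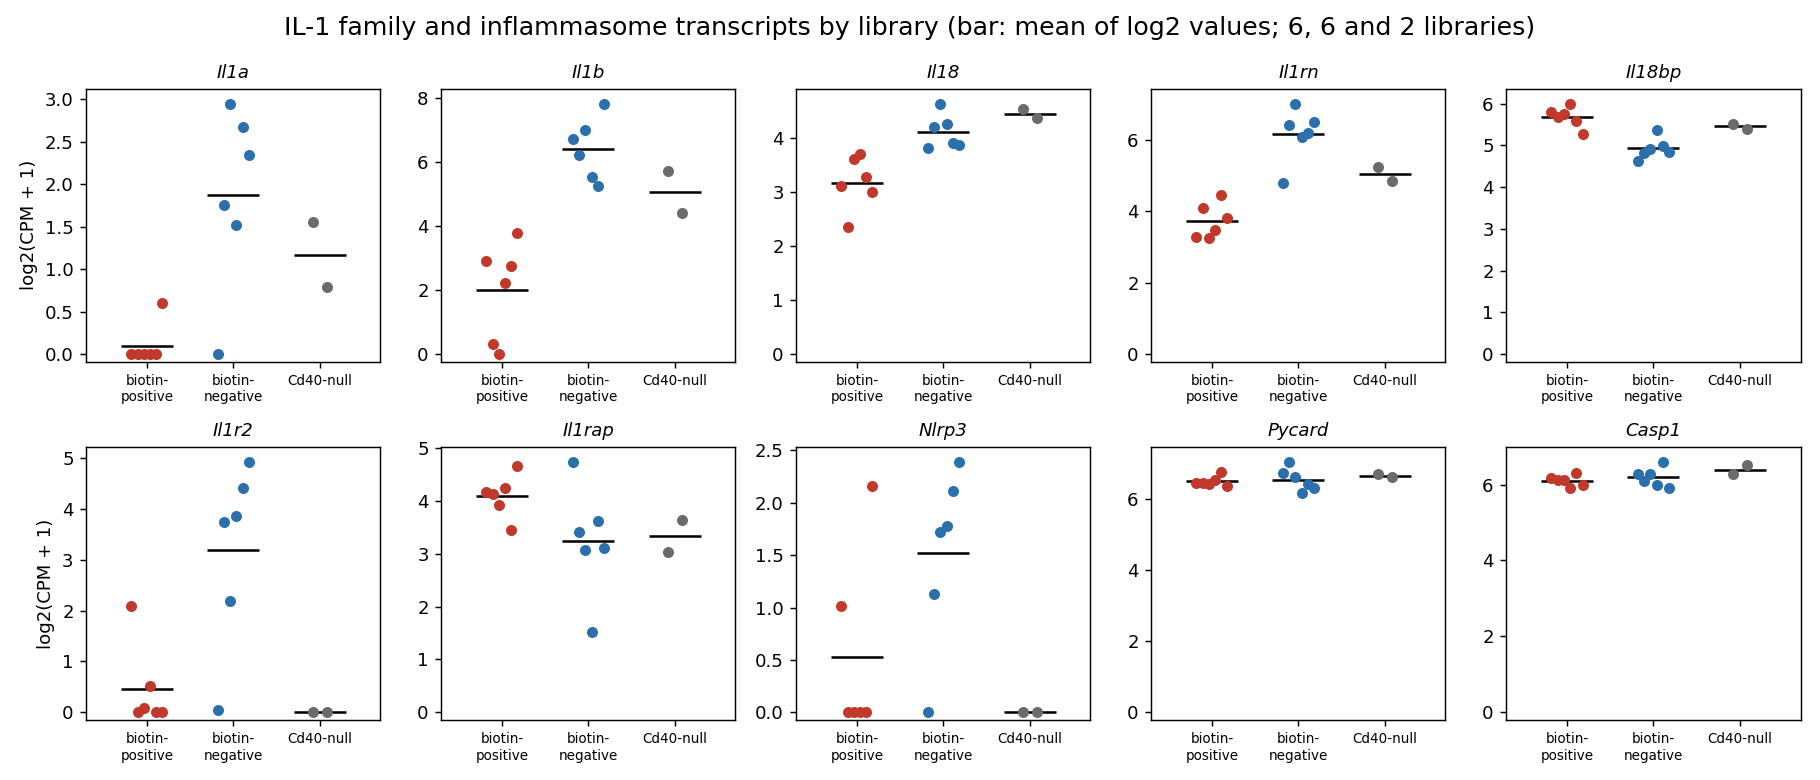
Level of each gene in each library, as log2(CPM + 1), by group; points are libraries and bars are means of the log2 values over 6, 6 and 2 libraries. Il1b and Il1rn separate the biotin groups. For these genes the Cd40-null libraries are inside the biotin-negative range, except 1 for Il1b that lies between the ranges of the biotin groups. For Il1rn this rests on biotin-negative replicate 1, at 26.5 CPM, as the rest of its group is at 66.0 CPM or more. Pycard and Casp1 overlap among all 3 groups, and Il1r2 and Nlrp3 are at 0 in both Cd40-null libraries.

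Among the antagonists, Il1rn had the smallest p of the 10 genes. Its lowest, median and highest libraries were at 8.41, 11.5 and 20.9 CPM in biotin-positive DCs and at 26.5, 77.4 and 127 CPM in biotin-negative DCs. The groups did not overlap, and biotin-negative replicate 1 was the one nearest to the biotin-positive range. The fold change was log2 -2.58 (SE 0.32, adjusted p = 7.38e-05), 5.97-fold lower. Il18bp went the other way, at 37.7, 51.8 and 62.9 CPM in biotin-positive libraries against 23.6, 28.5 and 40.7 CPM in biotin-negative libraries. Here 1 biotin-positive library, replicate 6, lay under the highest biotin-negative one, replicate 4. Il18bp was 1.70-fold higher (log2 0.77, SE 0.16, adjusted p = 0.00670). Il1b, Il1rn and Il18bp were called in each of the 12 fits with 1 library left out. Of the 10 genes, 3 had no overlap between the biotin groups, all lower in biotin-positive libraries (Il1b, Il1rn and Il18), where 2.41% of all genes tested were lower without overlap and 2.6% higher.

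The count of each antagonist was set over that of its ligand within each library, which needs no scaling between libraries. The log2 ratio of Il18bp to Il18 was 2.65 ± 0.50 in biotin-positive libraries (SD, n = 6), 0.85 ± 0.34 in biotin-negative libraries (SD, n = 6) and 1.04 ± 0.03 in Cd40-null libraries (SD, n = 2). Biotin-positive values spanned 2.25 to 3.59 and biotin-negative values 0.29 to 1.17, with every biotin-positive library above every other one. Biotin-positive minus biotin-negative was 1.80 (exact two-sided permutation p = 0.00216, which 924 arrangements cannot go below; 0.0130 adjusted over 6 ratio tests). Against Cd40-null libraries the difference was 1.61, higher in 6 of 6 biotin-positive libraries, where 28 arrangements cannot give an exact permutation p under 0.0714, the value found.

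The log2 ratio of Il1rn to Il1b was 2.74 ± 2.91 in biotin-positive (SD, n = 6), -0.28 ± 1.13 in biotin-negative (SD, n = 6) and -0.03 ± 0.66 in Cd40-null libraries (SD, n = 2). Although both transcripts were lower in biotin-positive libraries, their ratio overlapped between the biotin groups, from 0.02 to 7.01 against -1.96 to 0.94. The 2 highest ratios, 7.01 and 5.72, belong to biotin-positive replicates 3 and 2, which held 0 and 4 counts of Il1b. The difference of 3.02 had an exact two-sided permutation p of 0.0260 and did not pass after adjustment over the 6 ratio tests (0.0779); without biotin-positive replicate 6 it was 3.57 (adjusted 0.0390).

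**Figure D2:**
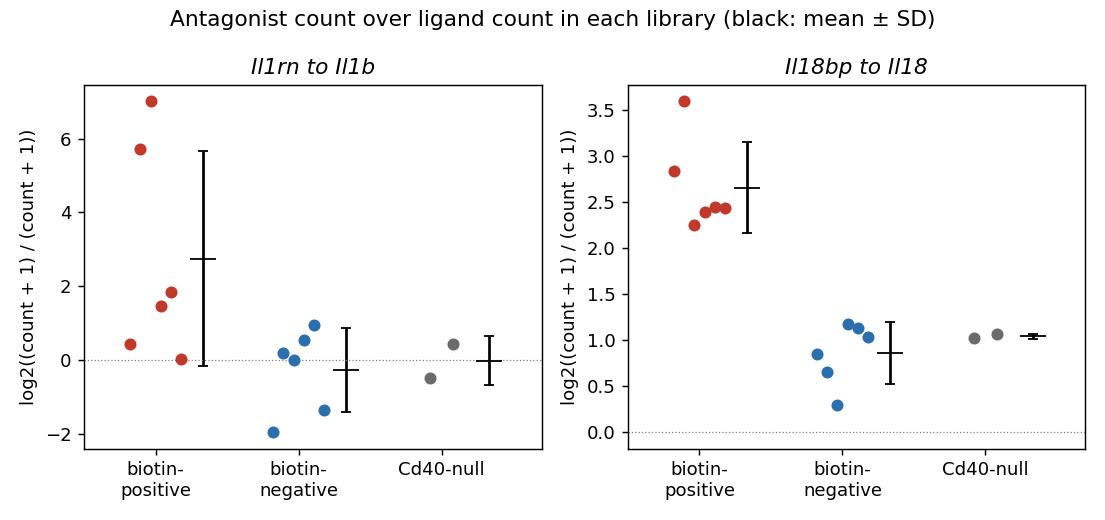
Log2 ratio of antagonist count to ligand count in each library, with 1 added to both counts; coloured points are libraries and black bars are means with SD. For Il18bp to Il18 the 6 biotin-positive libraries sit between 2.25 and 3.59, above all others, while for Il1rn to Il1b the biotin groups overlap.

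Of the receptors, the decoy Il1r2 was uneven. In biotin-positive libraries its lowest, median and highest were 0, 0.0329 and 3.28 CPM, and in biotin-negative libraries 0.0357, 12.9 and 29.3 CPM. In 5 of the biotin-negative libraries it was at 3.56 CPM or more, while replicate 1 held 1 count, so the groups overlapped. The fold change of log2 -4.38 (SE 1.39) had an adjusted p of 0.0677 and was not called. It was called without biotin-positive replicate 1 (log2 -7.19, adjusted p = 0.00685) and without biotin-negative replicate 1 (log2 -4.65, adjusted p = 0.0381). Il1rap, the chain that IL-1 and IL-33 receptors share, was at 9.87, 16.7 and 24.3 CPM in biotin-positive libraries and at 1.86, 8.59 and 25.6 CPM in biotin-negative libraries. Both the highest and the lowest Il1rap library were biotin-negative, and the difference did not pass the test (log2 0.66, SE 0.43, adjusted p = 0.442).

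Of the inflammasome genes, Casp1 averaged 67.9 ± 7.02 CPM in biotin-positive libraries, against 72.9 ± 13.4 CPM in biotin-negative ones (SD, n = 6 each). Pycard stood at 89.1 ± 9.63 and 93.8 ± 21.5 CPM in the same groups. Their log2 fold changes were -0.10 (SE 0.13, adjusted p = 0.758) and -0.07 (SE 0.14, adjusted p = 0.849), with ranges that overlapped almost wholly. Nlrp3 was low. It had counts in 2 of 6 biotin-positive libraries, 18 in replicate 1 and 67 in replicate 6, and in 5 of 6 biotin-negative libraries, from 30 to 74, with 0 in replicate 1. Its fold change of log2 -1.58 (SE 1.55) was not called (adjusted p = 0.654), and without biotin-positive replicate 6 it was log2 -3.42 (adjusted p = 0.302).

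**Figure D3:**
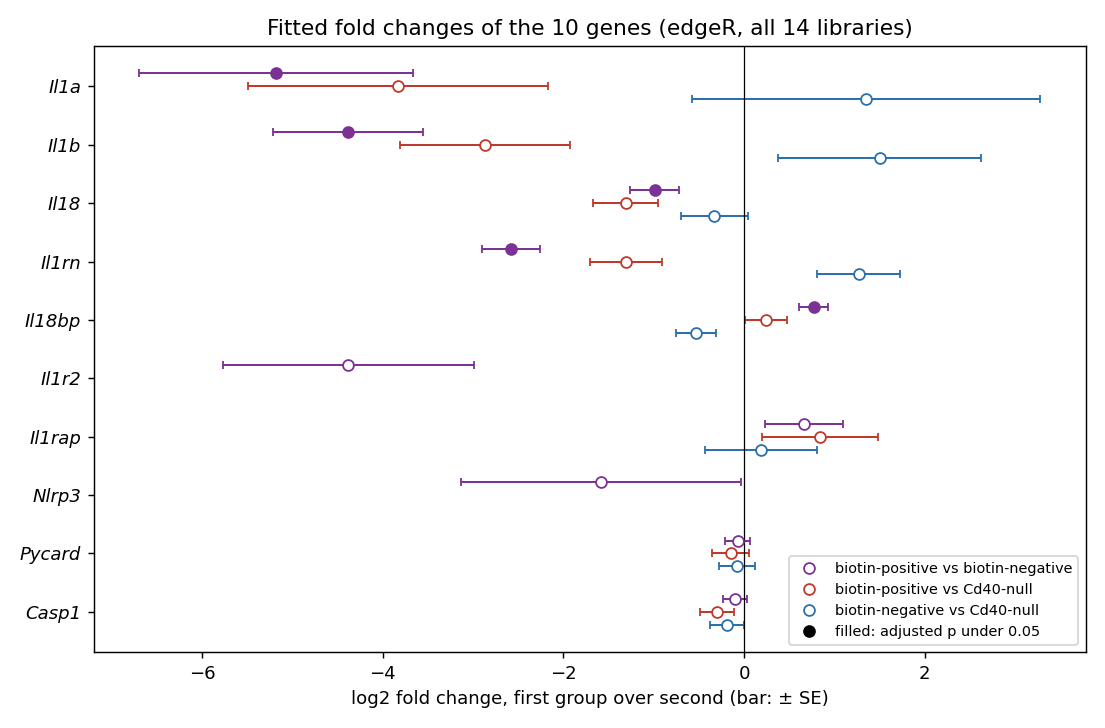
Fitted log2 fold changes with SE for the 3 comparisons, the first group named over the second; filled points passed an adjusted p of 0.05, and fold changes against a group at 0 are left out. Only biotin-positive against biotin-negative has filled points, Il1a, Il1b, Il18 and Il1rn to the left and Il18bp to the right.

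Lists of markers for cells other than these DCs gave mixed results in biotin-positive against biotin-negative libraries. Of 6 B cell markers, and of 5 tested markers of XCR1-positive DCs, edgeR called 0. The lists with called genes had them lower in biotin-positive libraries, except that of Langerhans cells, where they were higher. Among 19 markers of monocytes and macrophages, 10 fell in biotin-positive libraries and 0 rose. Their summed level was 128 to 294 CPM in biotin-positive, 330 to 1770 CPM in biotin-negative, and 685 and 413 CPM in Cd40-null libraries, without overlap between the biotin groups. Levels differed widely among these markers. Ly6c2, Fcgr1 and Mertk were low, with medians of 0.0283, 0 and 0 CPM in biotin-positive libraries, against 1.04, 0.799 and 0.393 CPM in biotin-negative ones. Lyz2, C1qb and Ccr2 had medians of 30.4, 1.63 and 0.209 CPM in biotin-positive libraries, against 282, 54.3 and 15.8 CPM in biotin-negative ones. Csf1r differed less, with medians of 91.3 and 119 CPM. In order of the marker sum, biotin-negative replicates 1, 5, 3, 2, 6 and 4 had sums of 330, 389, 906, 980, 1040 and 1770 CPM and Il1b at 104, 37.1, 127, 73.4, 225 and 45.7 CPM. Replicate 1 had the lowest Il1rn (26.5 CPM) and Il1r2 (0.0357 CPM) of its group. Of 12 neutrophil markers 2 passed the filter, and their defining genes S100a8 and S100a9 were at most 0.523 CPM in any library. The neutrophil sum was 15.1 to 21.0 CPM in biotin-positive, 25.8 to 35.5 CPM in biotin-negative, and 21.5 and 18.6 CPM in Cd40-null libraries. The sum of 4 Langerhans cell markers was 292 to 352 CPM, 54.6 to 161 CPM, and 137 and 131 CPM in the same groups, and 2 of the 4 rose. The sum of 8 natural killer cell markers was 38.8 to 72.7 CPM in biotin-positive, 151 to 240 CPM in biotin-negative, and 133 and 164 CPM in Cd40-null libraries. Most of it came from Klrk1 (medians of 36.5, 139 and 119 CPM in the same groups) and Klrd1 (5.14, 36.0 and 29.7 CPM), while Ncr1, Klrb1c, Gzma, Gzmb and Prf1 had medians of at most 0.0256 CPM. The sum of 11 T cell markers was 53.1 to 79.2 CPM in biotin-positive, 87.0 to 212 CPM in biotin-negative, and 184 and 126 CPM in Cd40-null libraries. Of these, Il2ra, which activated DCs also express, was called lower, and Cd3e had medians of 0.943, 0.445 and 2.51 CPM. The part of these cell types and of the number of detected genes in the Il1b, Il1rn, Il1a, Il18 and Il18bp differences was not tested apart from the group. With detected genes fitted as a covariate, edgeR called 0 of the 10 genes and 11 of all genes tested (0.0774%), and Il1rn was at log2 -3.23 (adjusted p = 0.0673).

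**Figure D4:**
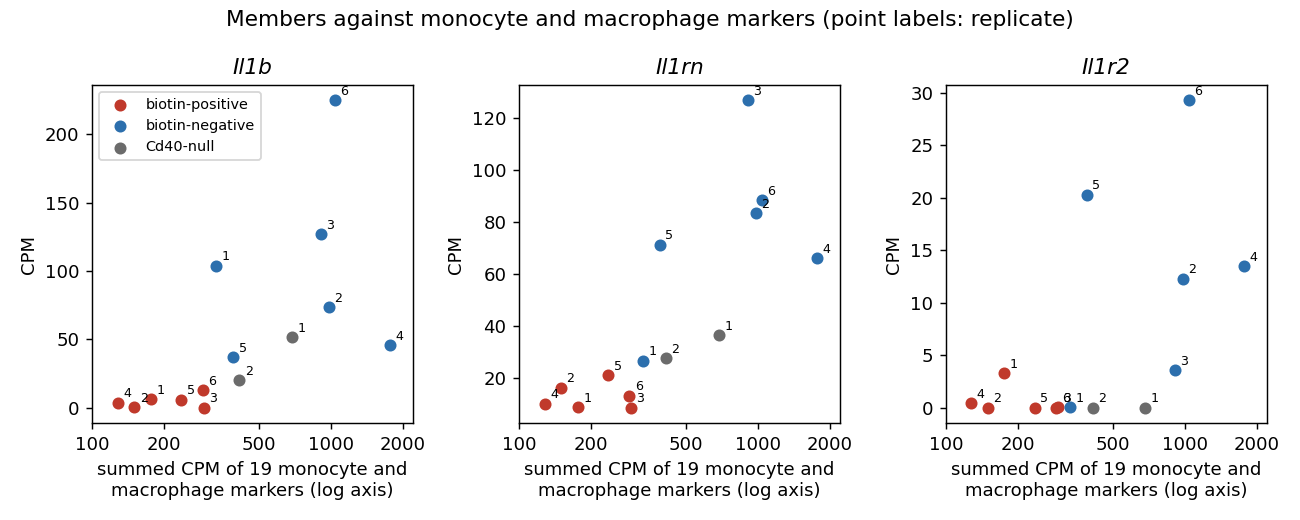
Level of Il1b, Il1rn and Il1r2 in each library (CPM) against the summed CPM of 19 monocyte and macrophage markers on a log axis, coloured by group and numbered by replicate. Biotin-positive libraries are at the lower left of each panel, and biotin-negative replicate 4 has the highest marker sum, 1770 CPM, with Il1b at 45.7 CPM.

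Other genes of the pathway came from lists chosen with earlier results of these data known. Between biotin-positive and biotin-negative libraries most were not called, as is so for all genes tested, of which 3.7% were called higher and 4.05% lower. Of 16 genes of IL-1 receptor signalling 1 rose, 1 fell and 14 were not called, and their median log2 fold change was 0.11. Irak3, an inhibitor of IL-1 and Toll-like receptor signalling also called IRAK-M, fell to 20.2 ± 8.18 CPM in biotin-positive against 41.1 ± 8.47 CPM in the biotin-negative group (n = 6 each; fold change log2 -1.03, SE 0.27, adjusted p = 0.0275). Tab2, an adaptor of the kinase TAK1, rose to 51.1 ± 12.4 CPM, against 30.3 ± 7.37 CPM (fold change log2 0.75, SE 0.20, adjusted p = 0.0259). The adaptor Myd88 was at 42.6 ± 8.65 and 37.8 ± 16.6 CPM and was not called. Of 6 other receptors of the family that passed the filter on low counts, of 8 listed, 0 were called by edgeR. In the same test 4 had an unadjusted p under 0.05, all lower in biotin-positive libraries, where 21.1% of all genes tested had one in either direction. The median log2 fold change of the 6 receptors was -2.54, and most of them had low counts. Among them Il18r1, a chain of the IL-18 receptor, was at 1.3 ± 2.04 and 7.53 ± 3.72 CPM (log2 -2.54, SE 1.08, adjusted p = 0.182). Il1r1, the signalling IL-1 receptor, was at 1.51 ± 1.38 and 0.829 ± 0.768 CPM in the same groups (adjusted p = 0.817). Of the 2 other ligands that passed the filter, Il33 and Il1f9 (IL-36 gamma), neither was called.

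Of 18 further inflammasome sensors and regulators that passed the filter, 1 rose, 2 fell and 15 were not called, where 7.75% of all genes tested were called. Their median log2 fold change was -0.14. Mefv, which encodes the sensor pyrin, fell to 27.4 ± 17.8 CPM in biotin-positive against 127 ± 13.1 CPM in the biotin-negative group (fold change log2 -2.22, SE 0.37, adjusted p = 0.00104). Its libraries ran from 4.90 to 58.8 CPM and from 106 to 144 CPM, without overlap. Pstpip1, whose protein binds pyrin, fell to 2.74 ± 0.885 against 9.33 ± 3.04 CPM (log2 -1.77, SE 0.38, adjusted p = 0.00685). Nlrp10, an NLR protein without leucine-rich repeats, rose to 32.1 ± 10.2 against 16.2 ± 3.49 CPM (log2 0.99, SE 0.24, adjusted p = 0.0151). Aim2, a sensor of cytosolic DNA, was at 22.4 ± 8.35 and 36.8 ± 6.35 CPM (adjusted p = 0.0654). The Naip genes are near-identical copies, and short reads may be shared among them. Among other caspases and effectors of cell death, 0 rose. Casp4, the mouse caspase-11 that senses cytosolic lipopolysaccharide, fell to 40.1 ± 8.23 CPM, against 56.8 ± 5.23 CPM (fold change log2 -0.50, SE 0.15, adjusted p = 0.0492). Gsdmd, the pore-forming gasdermin that caspase-1 cuts, averaged 246 CPM in biotin-positive libraries, against 289 CPM in biotin-negative ones, and was not called (log2 -0.23, adjusted p = 0.256).

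Marked cells were next set against DCs of mice without the receptor. The same 4 genes that fell against biotin-negative cells had lower levels here too, but edgeR called 0 of the 10 (4 at an unadjusted p under 0.05), where 2.27% of all genes were called and 13.8% had an unadjusted p under 0.05. DESeq2 called 2, Il18 and Il1rn (5.57% of all genes), and limma voom called Il18 (4.24% of all genes). Il18 was at 8.42 ± 2.89 CPM in biotin-positive (n = 6) and at 22.1 and 19.7 CPM in Cd40-null libraries (log2 -1.31, SE 0.36, adjusted p = 0.0675 with edgeR, 0.0216 with DESeq2). Il1rn was at 12.9 ± 4.89 CPM against 36.3 and 27.6 CPM (log2 -1.31, SE 0.40, adjusted p = 0.111 with edgeR, 0.0443 with DESeq2). Il1b was at 4.84 ± 4.79 CPM against 51.5 and 20.4 CPM (log2 -2.87, SE 0.94, adjusted p = 0.156), and Il1a at 0.086 ± 0.211 CPM against 1.93 and 0.723 CPM (log2 -3.83, SE 1.66, adjusted p = 0.307). Each of these 4 was lower in all 6 biotin-positive libraries than in both Cd40-null libraries, and 8.07% of all genes tested were lower without overlap. Il18bp was at 51.0 ± 8.42 CPM against 44.9 and 41.2 CPM (log2 0.24, SE 0.23, adjusted p = 0.724). Casp1 was at 67.9 ± 7.02 CPM against 77.2 and 89.7 CPM (log2 -0.30, SE 0.19, adjusted p = 0.518), and Pycard at 89.1 ± 9.63 CPM against 102 and 96.9 CPM (log2 -0.15, SE 0.20, adjusted p = 0.818). Il1rap was at 16.6 ± 4.75 CPM against 7.16 and 11.4 CPM, with 1 biotin-positive library, replicate 5, inside the null range (log2 0.84, SE 0.64, adjusted p = 0.616). Of the further lists, Mefv was the one gene called, with 27.4 ± 17.8 CPM in biotin-positive libraries, against 101 ± 34.0 CPM in Cd40-null libraries (n = 6 and 2, log2 -1.89, SE 0.46, adjusted p = 0.0385).

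Unmarked cells were also set against Cd40-null ones. EdgeR called 0 of the 10 genes (4 at an unadjusted p under 0.05) and 0.317% of all genes, and 9.22% of all genes had an unadjusted p under 0.05. DESeq2 called 1, Il1r2 (1.93% of all genes). Il1r2 was at 13.2 ± 10.7 CPM in biotin-negative libraries (n = 6) and at 0 in both Cd40-null libraries, or at least 194-fold higher when the null level is set at 3 counts summed over its libraries (0.0678 CPM). Its lowest biotin-negative library held 1 count, and the edgeR adjusted p was 0.321 (0.0113 with DESeq2). Nlrp3 was at 2.25 ± 1.5 CPM and likewise had no counts in either null library, with 0 in biotin-negative replicate 1 too. Its mean was at least 33.1-fold above the same floor, which covers counting error only, and edgeR did not call it (adjusted p = 0.499). In biotin-positive libraries the same floor gave at least 9.27-fold for Il1r2, at 0.629 ± 1.31 CPM, and at least 11-fold for Nlrp3, at 0.746 ± 1.39 CPM (adjusted p = 0.414 and 0.398). Each of these limits rests on 1 library: without biotin-positive replicate 1, with 58 counts of Il1r2 where the others held at most 6, it was at least 1.45-fold, and without replicate 6, with 67 counts of Nlrp3, at least 3.0-fold.

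The remaining genes overlapped or lay close between biotin-negative and Cd40-null libraries. Il1b was at 102 ± 69.4 CPM against 51.5 and 20.4 CPM (log2 1.5, SE 1.12, adjusted p = 0.707), and Il1rn at 77.0 ± 32.6 CPM against 36.3 and 27.6 CPM (log2 1.27, SE 0.46, adjusted p = 0.400). Il18 was at 16.7 ± 4.07 CPM against 22.1 and 19.7 CPM (log2 -0.33, SE 0.37, adjusted p = 0.851). Il1r2 was higher without overlap, as were 6.23% of all genes tested, and Il18bp lower, as were 4.47%. Il18bp was lower in all 6 biotin-negative libraries, at 29.9 ± 5.80 CPM against 44.9 and 41.2 CPM, and was not called (log2 -0.53, SE 0.22, adjusted p = 0.495). For Il1a, Il1rap, Casp1 and Pycard the log2 fold changes were 1.35, 0.19, -0.19 and -0.08, with edgeR adjusted p-values of 0.806 to 0.973, and that of Il1rap changed sign under 5 alternatives and those of Il1a and Pycard under 1 and 2. All 3 comparisons share groups, so the values of a gene in one are not independent of those in another.

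Over the 14 libraries, the 4 genes that varied most on the log2 scale were Il1r2 (SD 3.38), Il1b (SD 3.23), Il1a (SD 2.51) and Nlrp3 (SD 2.45). Each had libraries without counts, which the prior count sets at log2 CPM -3.36. These SDs and the nearest genes therefore partly reflect that floor, and a nearest gene need not be close. For each, the nearest genes of mean CPM 5 or more were taken by the root mean square difference between centred log2 CPM profiles. The gene nearest to Il1r2 was Ccr2, a chemokine receptor of monocytes, at a difference of 2.07, followed by Dab2 (2.19) and Cd38 (2.20). Ccr2 averaged 0.219 CPM in biotin-positive, 24.7 CPM in biotin-negative and 0.804 CPM in Cd40-null libraries. Nearest to Il1a were the lysozyme genes Lyz2 (1.24) and Lyz1 (1.38), which are similar in sequence, and then Il1rn (1.41). Nearest to Il1b were Prkar2a (1.60), Tmem51 (1.72) and Pde2a (1.74), and nearest to Nlrp3 were Cd38 (1.46), Ccl6 (1.60) and Uso1 (1.74).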

How the data were processed

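Smart-seq2 RNA libraries of 14 samples were analysed, grouped by the labels' sort and genotype. The deposited estimated counts per gene come from RSEM, and the submitters' processing notes name Bowtie2 2.1.0, RSEM 1.2.8, DESeq2 1.16.0 and mm10, without saying which step used which setting. A second table deposited by the authors holds a normalized signal; tested on the values, each is the count divided by 1 factor per library, over 10321 genes.

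Counts were rounded to whole numbers. Genes were kept by edgeR's filterByExpr with a minimum count of 10 (14217 of 23420 genes), scaled by TMM and fitted with edgeR 4.0.16 quasi-likelihood models (R 4.3.3) over all 14 libraries, which share 1 estimate of spread. P-values were adjusted by Benjamini-Hochberg over all genes tested, with 0.05 as threshold. Log2 CPM used a prior count of 2, and ratios of counts had 1 added to both. Antagonist-to-ligand ratios were compared by exact two-sided permutation tests. Alternatives used DESeq2 1.42.0, limma 3.58.1 (voom with quality weights, and limma on the deposited signal), other scalings and filters, a covariate for detected genes, a block and leaving out each library. The fit was tested on simulated data with known changes in 200 of 14217 genes. Between the biotin groups it recovered 22.5% of 2-fold and 57% of 4-fold changes. Against Cd40-null libraries it recovered 12% and 43% for biotin-positive, and 7% and 40% for biotin-negative libraries. A gene that was not called may therefore still differ. Total counts of 1.45e+07 to 3.33e+07 set the counting precision; reads without molecular identifiers are not independent molecules, so floors cover counting error only.

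The members and the gene lists were chosen with earlier results of these data known. The rule for named genes took the 10 members, Cd40, up to 6 called genes per pathway list, and the 3 nearest genes of the 4 most variable members. Myd88, Il18r1, Il1r1, Il33, Il1f9, Aim2 and Gsdmd, which were not called, were named after their values were seen. Positions are from GENCODE M21 (GRCm38) and promoters from RefSeq (GRCm38.p6), where all 10 members matched. An item of the list of caspases and effectors of cell death is not reported here.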

Additional observations from a re-analysis of the deposited data

Results flagged for a closer look

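In 3 of 20 combinations of gene and group (the 2 groups of 6 libraries), 1 library stood apart from the others. Chance gives about 1 in 20, a rate that may not hold for genes with few counts. The genes flagged, Il1a, Nlrp3 and Il1r2, had counts in only 1, 2 and 3 of 6 biotin-positive libraries. Il1a was at 0.516 CPM in biotin-positive replicate 6 and at 0 in the other 5 biotin-positive libraries. Nlrp3 was at 3.46 CPM in the same library, where the next was at 1.02 CPM. Il1r2 was at 3.28 CPM in biotin-positive replicate 1, where the next was at 0.425 CPM.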

How the results depend on the processing

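Between biotin-positive and biotin-negative libraries, 5 of the 10 genes were called, and 3 to 6 with 1 library left out; 3 remained (Il1b, Il1rn and Il18bp) without biotin-positive replicate 2 or biotin-negative replicate 2, 3 or 4. With detected genes fitted as a covariate 0 were called, as were only 11 of all genes tested against 1102 without it; values were log2 -3.23 for Il1rn (adjusted p = 0.0673), -1.71 for Il18 (0.284), -7.05 for Il1a and -3.21 for Il1b (0.438 each) and 0.52 for Il18bp (0.703); that number separates the biotin groups, so the covariate and the group cannot be told apart. Il1a was also lost with voom (adjusted p = 0.0571) and Il18 without the filter (0.0501), while Il1r2 was called by limma on the deposited signal (log2 -5.03, adjusted p = 0.0396). Against Cd40-null libraries, biotin-positive calls were 0 with edgeR, 1 with voom and 2 with DESeq2, and biotin-negative calls 0 with edgeR and 1 with DESeq2. The Il1rn to Il1b difference between biotin groups was 2.17 to 3.57 with 1 library left out, and between biotin-negative and Cd40-null libraries -0.71 to 0.22, changing sign without biotin-negative replicate 1 (0.09) or Cd40-null replicate 2 (0.22). Uncalled differences that changed sign, where the cause was not tested, were Pycard between the biotin groups (-0.15 to 0.04 with 1 library left out) and, between biotin-negative and Cd40-null libraries, Il18 (0.35), Il1rap (-0.94) and Pycard (0.15) with the covariate, Il1a (-1.75) and Pycard (0.05) with the replicate block, and Il1rap with voom (-0.04), on the deposited signal (-0.14) and with 1 library left out (-0.30 to 0.55). Deviations of same-numbered biotin-positive and biotin-negative libraries correlated at -0.023 to 0.013, and 0 of 6 correlated best with their own number. Differently numbered libraries correlated at -0.05 to 0.038. These values, all near 0, cannot decide whether same-numbered libraries share a mouse, which the labels do not give. The replicate number was also fitted as a block. With that replicate block the same 5 genes were called, and the Il18bp to Il18 difference was 1.80 (exact permutation p = 0.0312, adjusted 0.0938, n = 6 pairs), where 64 sign arrangements cannot give a smaller p, so the loss of the call says nothing about the size of the difference. Between the biotin groups, Nlrp3 moved from log2 -1.58 to -4.86 with the block and -3.30 with voom, uncalled in each. Precision is limited by the 2 Cd40-null libraries and by low counts of Il1a, Il1r2 and Nlrp3.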
